A study of Mus musculus with 8 samples.

Results

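The amino acid and taurine transporter genes of the mouse ventricle were compared between ventricles that overproduce neuregulin-1 and wild-type (WT) ventricles at E15.5. They were taken as all genes whose symbol starts with *Slc1a*, *Slc3a*, *Slc6a*, *Slc7a*, *Slc36a*, *Slc38a* or *Slc43a* and that had 10 or more counts in at least 4 of the 8 libraries. Of 53465 genes in the count table, 67 carry such a symbol, and 40 of the 67 reached this level. All 40 entered the test over 15580 genes. One of the 40, *Slc7a6os*, owes its symbol to its position opposite *Slc7a6* and is not a carrier.

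Poly(A) RNA of heart ventricles was sequenced in 4 libraries of embryos labelled Rosa26Nrg-1;Nkx5.5-Cre and in 4 libraries of WT embryos. The title of the series names the driver Nkx2.5-Cre, which acts in cardiac cells of the *Nkx2.5* lineage, and the first group is called *Nrg1GOF* here. The transgene sits at the Rosa26 locus, so *Nrg1* is made by cells that carry the driver and not by its usual sources alone. The labels name no strain, sex or litter, and no library of the driver or of the transgene alone was used here. The comparison asks how the excess of this ligand of the ErbB receptors changes the embryonic ventricular transcriptome.

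Amino acid carriers of the solute carrier (Slc) families differ in what drives them. Sodium-coupled carriers build up steep gradients of small neutral amino acids such as glutamine and alanine, and exchangers then trade these for leucine and other large amino acids that cells cannot make. Several of the exchangers are heterodimers of a glycoprotein heavy chain and a light chain that does the transport. Taurine, a sulphonic acid that is not built into proteins, is among the most abundant free amino compounds of heart muscle, where it serves as an osmolyte, and it enters cells mainly through *Slc6a6*.

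*Nrg1* stood between 59.7 and 63.7 CPM (counts-per-million on the scaled library size) in *Nrg1GOF* and between 3.07 and 4.47 CPM in WT. Library totals ran from 8038641 counts, in *Nrg1GOF* library 4, to 26786039. WT libraries 1 and 2, and likewise WT libraries 3 and 4, resembled each other more than the other pair. The pairs differed in red blood cell transcripts, whose 13 listed markers summed to 12237 and 13080 CPM in the first pair and to 4441 and 5532 CPM in the second. In *Nrg1GOF* they summed to 5460 to 8928 CPM, the lowest library within the range of the second WT pair. The WT pairs also differed in the listed markers of fibroblasts, epicardium and mural cells (sums of 3824 and 3811 CPM against 2891 and 2931 CPM). Of the cardiomyocyte markers, *Myh6* (3718 and 3639 CPM against 2003 and 1960 CPM) and *Ryr2* (725 and 817 CPM against 378 and 372 CPM) differed likewise. *Myh7* was at 17048 to 18290 CPM in all WT libraries. The 8 cardiomyocyte markers summed to 44133 to 45254 CPM in WT and 35003 to 41956 CPM in *Nrg1GOF*, so the tissue carried its defining transcripts, and 4 of the 8 were called lower (12.8% of all tested genes were) and 0 higher. All 8 macrophage markers were called higher in *Nrg1GOF* (summed level 101 to 116 CPM against 52.8 to 62.7 CPM), as were 9 of the 10 markers of fibroblasts, epicardium and mural cells (5274 to 6742 CPM against 2891 to 3824 CPM), where 15.9% of all tested genes were called higher. The 6 atrial markers summed to 983 to 1109 CPM in WT and 1577 to 1749 CPM in *Nrg1GOF*, with 2 called higher and 1 lower. Of the 8 endothelial markers 3 were called higher and 1 lower (1083 to 1120 CPM in WT, 1140 to 1215 CPM in *Nrg1GOF*), and of the 8 neural and neural crest markers 5 were tested and 2 called higher (13.3 to 18.2 CPM in WT, 13.9 to 23.1 CPM in *Nrg1GOF*). The part of these differences in the values that follow was not tested. None of the markers of these lists was at 0 in all libraries. In bulk tissue, fewer cells of a type and less RNA per cell cannot be told apart.

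Of the 40 transporter genes, 20 (50%) were called at an adjusted p under 0.05 by the quasi-likelihood test of edgeR, against 28.7% of all tested genes. Higher in *Nrg1GOF* were 15 (37.5%, against 15.9% of all tested genes) and lower were 5 (12.5%, against 12.8%). The median log2 fold change was 0.18 over the 40 genes and -0.01 over all tested genes, and the median size of the change was 0.37 and 0.20. The log2 fold change is written log2FC below. Of the 20 calls, 10 were under 0.5 in size on the log2 scale and 3 (*Slc6a6*, *Slc7a3* and *Slc1a2*) were at 1 or more, a size that 4.65% of all tested genes reached with a call. In 21 of the 40 genes (52.5%, against 30.7% of all tested genes) every library of a genotype lay beyond every library of the other. When the WT pairs were summed to 1 sample each, 12 of the 40 were called (10 higher, 2 lower), against 15.3% of all genes then tested.

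**Figure D1:**
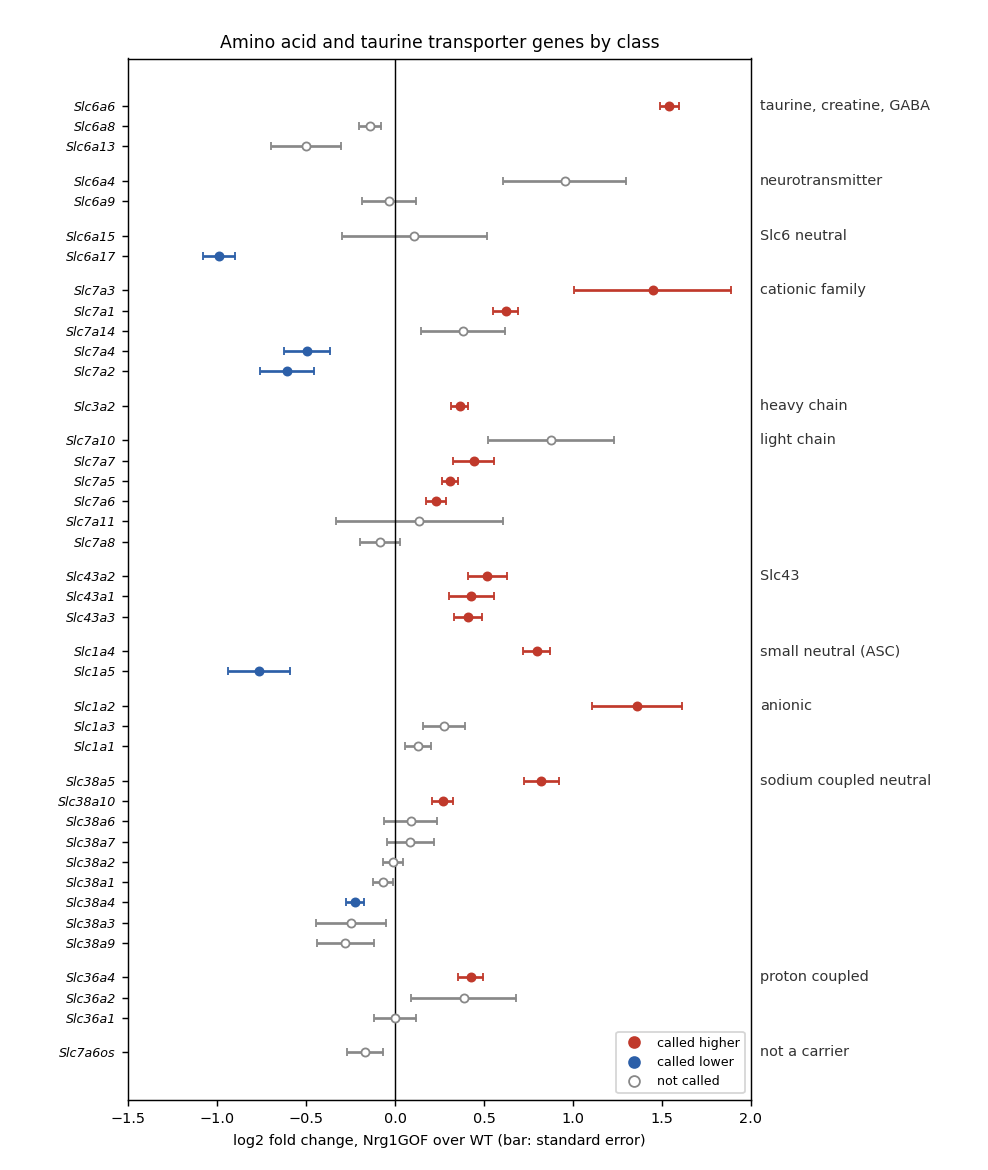
The log2 fold change of *Nrg1GOF* over WT (x axis) is plotted for each of the 40 genes, ordered by class, with bars for the standard error, filled points for called genes and open points for the others. *Slc6a6* lies farthest to the right at 1.54 with a short bar, and *Slc6a17* farthest to the left at -0.99.

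The taurine carrier *Slc6a6* (ENSMUSG00000030096, GRCm38 chromosome 6, 91684053 to 91759066, plus strand) had the highest log2FC of the 40 genes. Its level was 171, 168, 172 and 171 CPM in WT libraries 1 to 4 and 499.8, 483, 469.5 and 531 CPM in *Nrg1GOF* libraries 1 to 4. The WT libraries were nearly equal, and the lowest *Nrg1GOF* library stood far above the highest of them. The group values were 170.3 ± 1.80 and 496 ± 26.2 CPM (SD, n = 4 each), a 2.91-fold rise with a log2FC of 1.54 (SE 0.05, adjusted p = 2.61e-07). Among the 2147 tested genes with a WT mean of 100 CPM or more, this log2FC had rank 3 from the highest. Over all tested genes, *Slc6a6* had rank 183 by log2FC and rank 4 by raw p. Per kilobase of exon, its gain was 38.5 CPM, and the gains of the 14 other genes called higher summed to 28.9 CPM. The annotated antisense gene *Gm44981* had no counts in any library. Of the genes that make taurine, *Cdo1*, the dioxygenase that starts the route from cysteine, rose from 8.02 ± 1.33 to 14.6 ± 1.35 CPM (SD, n = 4 each, log2FC 0.88, SE 0.13, adjusted p = 0.00095). *Csad* (log2FC 0.05, SE 0.10) and *Ado* (-0.02, SE 0.05), which act after it or beside it, were not called (adjusted p = 0.759 and 0.756). These 2 genes were named after their values were seen.

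The other carriers of this class were not called. *Slc6a8*, which carries creatine, the store of phosphate for muscle energy, was at 124, 117, 136 and 138 CPM in WT and at 112, 119, 117 and 118 CPM in *Nrg1GOF*. The groups overlapped, and the log2FC of -0.14 (SE 0.06) was not called (adjusted p = 0.112). It was called lower against WT libraries 3 and 4 alone (-0.23, adjusted p = 0.0238), with the red blood cell covariate (-0.17, 0.0222) and without WT library 2 (-0.19, 0.0486). *Slc6a13*, a carrier of GABA that also accepts taurine, was low (3.44 to 4.69 CPM in WT, 2.18 to 3.55 CPM in *Nrg1GOF*) and not called either (log2FC -0.50, SE 0.20, adjusted p = 0.0846). Per kilobase of exon, the ratio of *Slc6a6* to *Slc6a8* went from 0.82 ± 0.06 in WT to 2.62 ± 0.16 in *Nrg1GOF* (SD, n = 4 each), with no overlap between the groups.

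Other *Slc6* genes were at low level. *Slc6a17*, a carrier of neutral amino acids known from synaptic vesicles, had the lowest log2FC of the 40 genes. It was at 24.2, 23.2, 24.2 and 21.5 CPM in WT and at 10.6, 12.9, 12.6 and 10.5 CPM in *Nrg1GOF*, so that every *Nrg1GOF* library lay below every WT library. The log2FC was -0.99 (SE 0.09, adjusted p = 7.07e-05). The serotonin carrier *Slc6a4* was at 2.48, 2.62, 1.09 and 0.901 CPM in WT and at 3.86, 3.19, 2.74 and 4.00 CPM in *Nrg1GOF*. Its groups did not overlap, but the WT pairs stood apart from each other, and it was not called (log2FC 0.95, SE 0.35, adjusted p = 0.0666). The glycine carrier *Slc6a9* (log2FC -0.03, SE 0.15) and the neutral carrier *Slc6a15* (0.11, SE 0.41), the latter with 1 to 17 counts per library, were not called (adjusted p = 0.897 and 0.88).

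**Figure D2:**
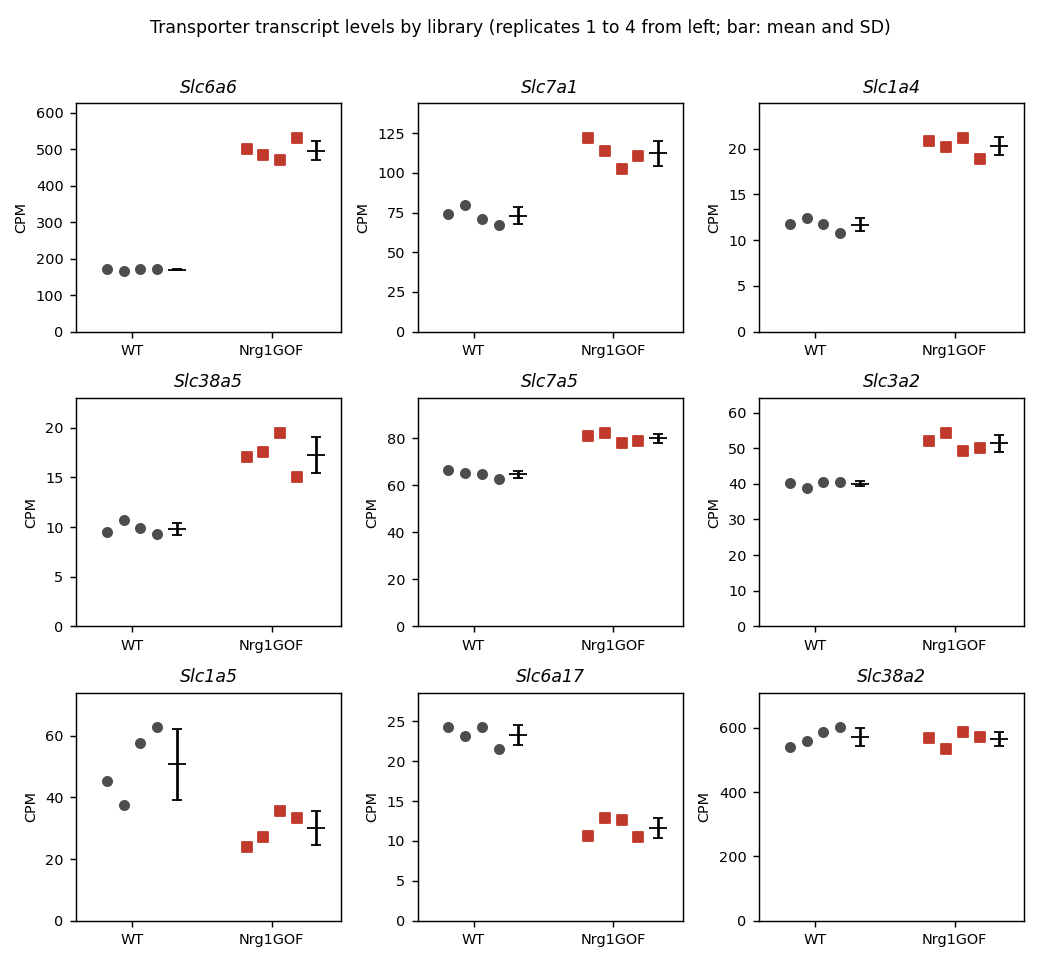
Levels of 9 transporter genes in each library, in CPM from 0 (y axis), with circles for WT and squares for *Nrg1GOF* and a bar for mean and SD. *Slc6a6* stood at 168 to 172 CPM in WT and 469.5 to 531 CPM in *Nrg1GOF*, whereas the groups overlap for *Slc38a2*.

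Levels can be compared between genes only per length, here as CPM per kilobase of annotated exon. In WT the order was led by *Slc38a2* (64.6 ± 3.16, SD, n = 4), followed by *Slc38a4* (50.5 ± 1.58), *Slc38a10* (25.3 ± 0.895), *Slc6a8* (24.7 ± 1.87) and *Slc6a6* (20.1 ± 0.213). *Slc38a10* and *Slc6a8* did not differ beyond their spread. In *Nrg1GOF* *Slc38a2* was still first (64.0 ± 2.53), but *Slc6a6* was now second (58.6 ± 3.10), ahead of *Slc38a4* (43.1 ± 1.53). All 39 carriers together summed to 296, 298, 314 and 312 CPM per kilobase in WT libraries 1 to 4 and to 355, 352, 357 and 358 in *Nrg1GOF* libraries 1 to 4, so the groups did not overlap. *Slc6a6* made up 6.46% to 6.82% of this sum in WT and 15.6% to 17.5% in *Nrg1GOF*. Without *Slc6a6* the sum was 285 ± 8.98 in WT and 297 ± 2.97 in *Nrg1GOF* (SD, n = 4 each), with the lowest *Nrg1GOF* library (295) next to the highest WT library (294).

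**Figure D3:**
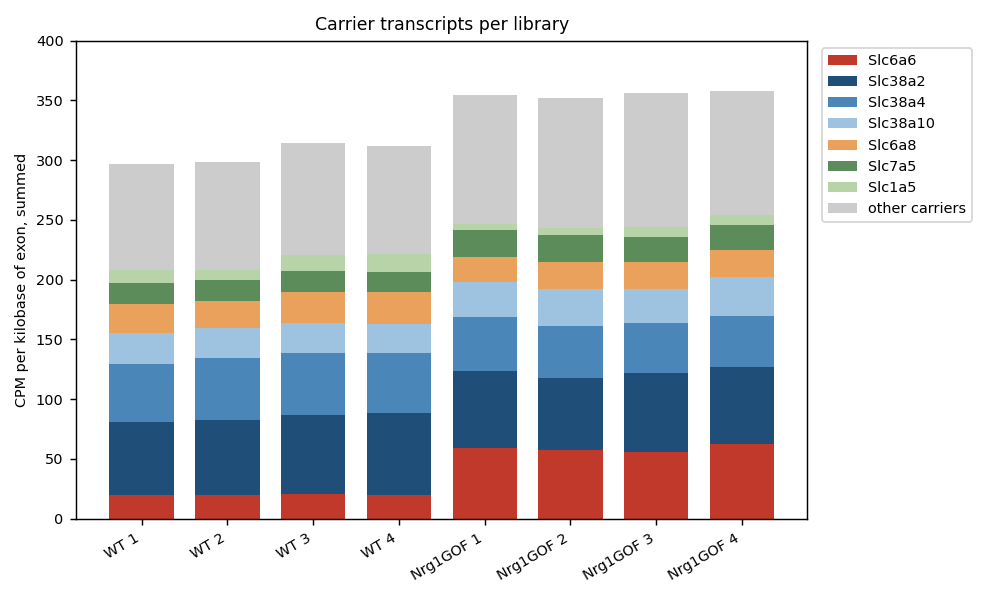
Transcripts of the 39 carriers are stacked per library in CPM per kilobase of exon (y axis), WT on the left and *Nrg1GOF* on the right, with the 7 most abundant carriers of WT in colour and the others in grey. The *Slc6a6* segment at the base grows from 6.46% to 6.82% of the bar in WT to 15.6% to 17.5% in *Nrg1GOF*, and the bars reach 296 to 314 and 352 to 358.

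Of the heterodimeric exchangers, the heavy chain and 3 of the 6 light chains were called higher, and none lower (15.9% and 12.8% of all tested genes). The heavy chain *Slc3a2* (chromosome 19, 8706882 to 8723369), which brings its light chains to the cell surface, was at 40.2, 39.0, 40.5 and 40.5 CPM in WT and at 52.0, 54.4, 49.1 and 50.1 CPM in *Nrg1GOF*. Its main light chain *Slc7a5* (chromosome 8, 121881150 to 121907694), which takes up leucine and other large neutral amino acids, was at 66.5, 65.0, 64.7 and 62.8 CPM in WT and at 80.9, 82.3, 77.9 and 79.0 CPM in *Nrg1GOF*. In both genes the libraries of each genotype were close together and the groups did not overlap. The log2FC was 0.36 (SE 0.05, adjusted p = 0.000661) for *Slc3a2* and 0.31 (SE 0.05, adjusted p = 0.000903) for *Slc7a5*, a rise of 1.28-fold and 1.24-fold. Their ratio per kilobase, light over heavy chain, was 1.54 ± 0.05 in WT and 1.48 ± 0.03 in *Nrg1GOF* (SD, n = 4 each), with overlap.

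Of the other light chains of *Slc3a2*, *Slc7a6* and *Slc7a7*, which exchange cationic for neutral amino acids, were called higher. *Slc7a6* went from 33.5 ± 1.22 to 39.2 ± 1.67 CPM (SD, n = 4 each), a log2FC of 0.23 (SE 0.05, adjusted p = 0.0106). It was not called against WT libraries 3 and 4 alone (adjusted p = 0.0632) or with the WT pairs summed (0.0719). *Slc7a7*, which is abundant in macrophages, was at 4.97, 4.96, 5.38 and 4.63 CPM in WT and at 6.35, 6.91, 7.36 and 6.38 CPM in *Nrg1GOF* (log2FC 0.44, SE 0.11, adjusted p = 0.0164). The summed macrophage markers rose over the same libraries from at most 62.7 to at least 101 CPM, and their part in the *Slc7a7* value was not tested. *Slc7a7* also shares exon positions with *Oxa1l* on the opposite strand, which was lower in *Nrg1GOF* (log2FC -0.36, adjusted p = 0.00194), and the strand setting of the counting is not given in the sources used here. Against WT libraries 1 and 2 or WT libraries 3 and 4 alone, *Slc7a7* kept a log2FC of 0.44 in both but was no longer called (adjusted p = 0.0706 and 0.0562). At equal depth its log2FC was 0.28 (adjusted p = 0.366), and the call was also lost with the WT pairs summed (0.0802) and with no filter (0.0504). Leaving out WT library 4 ended the call as well, and it was kept in 14 of 21 alternatives.

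*Slc7a11*, the light chain that imports cystine in exchange for glutamate, was at 0.879, 4.58, 1.74 and 1.23 CPM in WT and at 2.0, 2.14, 3.04 and 1.75 CPM in *Nrg1GOF*. WT library 2 exceeded all *Nrg1GOF* libraries, and the gene was not called (log2FC 0.14, SE 0.47, adjusted p = 0.865). Without that library the log2FC was 0.82. *Slc7a8*, a second carrier of large neutral amino acids, was not called (log2FC -0.09, SE 0.11, adjusted p = 0.627), and neither was *Slc7a10*, an exchanger of alanine, serine and cysteine with 3 to 20 counts per library (0.87, SE 0.35, adjusted p = 0.0952).

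The 3 *Slc43* genes were all called higher (15.9% of all tested genes were). *Slc43a1* and *Slc43a2* let large neutral amino acids pass without sodium or an exchange partner, and *Slc43a3* carries purine nucleobases. *Slc43a2* was at 8.03, 8.02, 7.12 and 6.76 CPM in WT and at 9.98, 11.9, 11.2 and 9.50 CPM in *Nrg1GOF* (log2FC 0.52, SE 0.11, adjusted p = 0.0066). Against WT libraries 1 and 2 alone its log2FC was 0.41 and it was not called (adjusted p = 0.0663). *Slc43a3*, the most abundant of them, went from 40.9 ± 2.13 to 54.2 ± 5.52 CPM (SD, n = 4 each), a log2FC of 0.41 (SE 0.08, adjusted p = 0.00323). *Slc43a1*, its neighbour on chromosome 2 at a distance of 73.0 kb, had 0.43 (SE 0.13, adjusted p = 0.0312) and was the less stable call, kept in 11 of 21 alternatives.

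Of the 5 genes of the cationic amino acid carrier family, 2 were called higher and 2 lower (15.9% and 12.8% of all tested genes). *Slc7a1* (chromosome 5, 148327410 to 148399904), the general carrier of arginine, lysine and ornithine, was at 74.1, 79.8, 71.0 and 67.2 CPM in WT and at 122, 114, 103 and 111 CPM in *Nrg1GOF*, without overlap. This was a log2FC of 0.62 (SE 0.07, adjusted p = 0.000217). *Slc7a2*, a carrier of the same substrates with a form of low affinity, was at 15.2, 13.9, 16.6 and 16.0 CPM in WT and at 10.3, 9.57, 12.8 and 7.0 CPM in *Nrg1GOF* (log2FC -0.61, SE 0.15, adjusted p = 0.0138). The ratio of *Slc7a1* to *Slc7a2* per kilobase was 3.33 to 4.56 in WT and 6.35 to 12.5 in *Nrg1GOF*. *Slc7a3*, of the same group, was close to the limit of detection, with 4, 8, 15 and 17 counts in WT and 38, 33, 17 and 9 counts in *Nrg1GOF*. It was called higher (log2FC 1.45, SE 0.44, adjusted p = 0.034), but the call held in 10 of 20 alternatives and was lost without any 1 of *Nrg1GOF* libraries 1, 2 and 4 and WT libraries 1, 2 and 3. *Slc7a4*, whose substrate is not settled, was lower, at 6.98 to 7.85 CPM in WT and 4.67 to 6.50 CPM in *Nrg1GOF* (log2FC -0.49, SE 0.13, adjusted p = 0.0171). With the WT pairs summed, *Slc7a2* and *Slc7a4* lost their calls (adjusted p = 0.0784 and 0.0928). The same held when WT libraries 1 and 2 alone were used (0.0903 and 0.0995), and for *Slc7a4* also at equal depth (0.198). *Slc7a14*, a relative found in lysosomes, was not called (0.38, SE 0.23, adjusted p = 0.263).

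The pair of exchangers for alanine, serine and other small neutral amino acids also split. *Slc1a4* (chromosome 11, 20302180 to 20332713, minus strand) was at 11.8, 12.4, 11.8 and 10.8 CPM in WT and at 20.8, 20.1, 21.1 and 18.9 CPM in *Nrg1GOF*. The groups were tight and far apart, with a log2FC of 0.80 (SE 0.08, adjusted p = 8.66e-05). *Slc1a5*, which also takes up glutamine, was at 45.4, 37.4, 57.6 and 62.7 CPM in WT and at 23.9, 27.2, 35.7 and 33.3 CPM in *Nrg1GOF*. Its groups did not overlap, but the lowest WT library lay near the highest *Nrg1GOF* library and the WT pairs differed. The log2FC was -0.77 (SE 0.17, adjusted p = 0.00882), and -0.85 with a covariate of red blood cell markers. Against WT libraries 1 and 2 alone it was -0.48 (adjusted p = 0.0622). Against WT libraries 3 and 4 alone it was -1.004 (adjusted p = 0.00141). In both groups *Slc1a5* was lower in libraries 1 and 2 than in libraries 3 and 4. The ratio of *Slc1a4* to *Slc1a5* per kilobase lay between 0.183 and 0.353 in WT and between 0.603 and 0.924 in *Nrg1GOF*.

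The window around the start of *Slc1a4* is shown because it holds letters that match the CARE, an element that binds ATF4. ATF4 is a factor induced when amino acids run short, and its binding here was not tested. The RefSeq promoter table (GRCm38.p6, 250 bases before to 50 after a start) has windows for 28 of the 40 genes, 13 of them called. *Slc6a6* and 6 other called genes have no entry. On either strand, the letters TGATGNAAN occurred in at least 1 window of 3 of the 28 genes (10.7%), against 4.5% of the 27025 genes of the table. The 3 genes are *Slc1a4* and *Slc7a7*, which were called higher, and *Slc7a11*, which was not called. Their windows are given 5′ to 3′ on the strand of the gene, with matches in capitals.
*Slc1a4*, chr11:20332664-20332963, minus strand: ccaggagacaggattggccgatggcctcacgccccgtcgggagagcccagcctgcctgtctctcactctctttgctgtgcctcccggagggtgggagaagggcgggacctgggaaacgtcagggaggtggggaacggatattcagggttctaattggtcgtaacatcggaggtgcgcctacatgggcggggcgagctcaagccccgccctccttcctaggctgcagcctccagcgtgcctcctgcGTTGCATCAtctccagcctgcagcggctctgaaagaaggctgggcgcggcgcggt
*Slc7a11*, chr3:50443564-50443863, minus strand: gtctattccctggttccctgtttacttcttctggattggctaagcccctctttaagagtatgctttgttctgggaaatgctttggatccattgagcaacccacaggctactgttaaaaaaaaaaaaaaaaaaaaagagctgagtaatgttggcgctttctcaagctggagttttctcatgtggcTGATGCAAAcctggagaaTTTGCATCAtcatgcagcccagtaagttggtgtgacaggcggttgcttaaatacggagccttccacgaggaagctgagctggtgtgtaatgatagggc
*Slc7a7*, chr14:54417895-54418194, minus strand: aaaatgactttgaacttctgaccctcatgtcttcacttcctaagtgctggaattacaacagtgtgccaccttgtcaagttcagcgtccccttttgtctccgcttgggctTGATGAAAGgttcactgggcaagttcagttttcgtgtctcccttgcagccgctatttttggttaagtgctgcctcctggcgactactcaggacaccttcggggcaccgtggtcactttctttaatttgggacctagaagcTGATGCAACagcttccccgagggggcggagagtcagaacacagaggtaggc
In *Slc1a4* the match overlaps the annotated start. *Slc7a11* holds 2 matches on opposite strands, within the 66 bases before its start, and the window shown for *Slc7a7*, the most upstream of its 5, holds 2. Of the other 4 windows of *Slc7a7*, the 1 at 54417653 to 54417952 overlaps it and holds 1 of these same matches. The other 3 hold none, and of these the window at 54417630 to 54417929 also overlaps it. The E-box CACGTG occurred in windows of 5 of the 28 genes (17.9%, against 8.09% of all genes), among them *Slc38a5* and *Slc43a1* of those called. The core of the antioxidant response element, TGACNNNGC, occurred in 7 (25.0%, against 14.0%), with *Slc7a1*, *Slc7a6* and *Slc43a1* of those called. Genes with several annotated starts have more windows in which letters can match.

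Among the carriers of anionic amino acids, *Slc1a2*, a glutamate carrier best known from astrocytes, was called higher at low level. It was at 1.11, 1.53, 0.89 and 0.779 CPM in WT and at 2.36, 2.67, 3.38 and 2.50 CPM in *Nrg1GOF*, a log2FC of 1.36 (SE 0.25, adjusted p = 0.00305), and this call held in 21 of 21 alternatives. Of the neural and neural crest markers, whose sums overlapped between the groups, 2 of 5 tested were higher, and their part in this value and in that of *Slc17a8*, given further on, was not tested. *Slc1a1*, the main glutamate and aspartate carrier here by level, was at 24.4 ± 1.003 and 26.7 ± 2.13 CPM (SD, n = 4 each) and not called (log2FC 0.13, SE 0.07, adjusted p = 0.217). *Slc1a3* was not called either (0.28, SE 0.12, adjusted p = 0.118).

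The sodium-coupled neutral carriers of the *Slc38* family are the most abundant group, with 54.3% of carrier transcripts per kilobase in WT and 46.7% in *Nrg1GOF*, and their sums were nearly equal (166 ± 4.69 and 166 ± 2.32 CPM per kilobase, SD, n = 4 each). *Slc38a2*, the carrier of alanine and glutamine that responds to amino acid shortage in many cells, was at 539, 558, 586 and 601 CPM in WT and at 569.7, 535, 588 and 570.0 CPM in *Nrg1GOF*. The groups overlapped, with a log2FC of -0.01 (SE 0.06, adjusted p = 0.893). *Slc38a1*, 44.5 kb away on chromosome 15, was also not called (-0.07, SE 0.06, adjusted p = 0.403). *Slc38a4*, the next in this row on chromosome 15 and an imprinted gene in placenta, was slightly lower, at 205, 218, 221 and 216 CPM in WT and at 192, 185, 178 and 179 CPM in *Nrg1GOF* (log2FC -0.23, SE 0.05, adjusted p = 0.00697).

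*Slc38a5*, a carrier of glutamine, histidine and serine that can run in both directions, had the highest log2FC of this family. It was at 9.48, 10.7, 9.87 and 9.30 CPM in WT and at 17.1, 17.5, 19.5 and 15 CPM in *Nrg1GOF*, without overlap (log2FC 0.82, SE 0.10, adjusted p = 0.000256). *Slc38a3*, which shares its substrates, was not called (-0.25, SE 0.20, adjusted p = 0.394). *Slc38a10* rose from 162 ± 5.75 to 195 ± 12.4 CPM (SD, n = 4 each, log2FC 0.27, SE 0.06, adjusted p = 0.00709). Against WT libraries 1 and 2 alone, neither *Slc38a4* nor *Slc38a10* was called (adjusted p = 0.0591 and 0.0609), nor with the WT pairs summed (0.0694 and 0.0583). *Slc38a9*, the lysosomal arginine sensor, was at 11.3 to 16.9 CPM in WT and 9.50 to 14.2 CPM in *Nrg1GOF* (-0.28, SE 0.16, adjusted p = 0.227), and *Slc38a6* and *Slc38a7* lay within 0.1 of no change with adjusted p of 0.715 and 0.685.

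Of the carriers of the *Slc36* family, *Slc36a4* was called. It was at 33.8, 32.1, 29.0 and 29.4 CPM in WT and at 45.1, 41.2, 40.0 and 40.1 CPM in *Nrg1GOF* (log2FC 0.42, SE 0.07, adjusted p = 0.00148). *Slc36a1* stood at 19.5 ± 3.05 and 19.4 ± 1.97 CPM (SD, n = 4 each, adjusted p = 0.995). *Slc36a2*, 19.3 kb from it on chromosome 11, was low and not called (log2FC 0.39, SE 0.29, adjusted p = 0.371). *Slc7a6os*, the gene that is no carrier, was not called (-0.17, SE 0.10, adjusted p = 0.256), while its neighbour *Slc7a6* was.

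The remaining 27 genes of these families were at or near the limit of detection. No count was found in any library for 7 of them, among them *Slc6a12*, *Slc6a11* and *Slc6a19*, which allows a level of up to 0.112 to 0.373 CPM of the library total at 3 counts. Just outside the rule were *Slc1a6*, *Slc6a18* and *Slc7a9*, which reached 10 counts in 1 library each with at most 16.4 counts. Just inside it were *Slc6a15*, *Slc7a10* and *Slc7a3*, which reached 10 counts in 5 libraries, and *Slc7a14*, which did so in 7. The other 36 did so in all 8, and none of the 40 passed through libraries of a single genotype.

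Genes that make, break down or sense amino acids were drawn from 9 lists, of which 113 genes were tested. Of these, 26 were called higher and 20 lower, in all 40.7% of the tested genes of the lists against 28.7% of all tested genes. In the list for branched-chain amino acid breakdown 7 of 12 genes were lower (12.8% of all tested genes were) and 1 was higher, with a median log2FC of -0.34. The cardiomyocyte markers had a median log2FC of -0.32 with 4 of 8 lower, and their part in this was not tested. *Ppm1k*, the phosphatase that activates the rate-limiting dehydrogenase, was lower (-0.67, SE 0.06, adjusted p = 8.64e-05), from 46.4 to 29.3 CPM. The gene that rose was *Bcat1*, the cytosolic transaminase (1.37, SE 0.15, adjusted p = 0.000185), from 2.99 to 7.74 CPM. In the list for lysosomal amino acid sensing 4 of 20 were lower (12.8% of all tested genes were) and 0 higher (15.9% were). The share called in either direction was below the 28.7% of all tested genes. Among the 4 were the Rag GTPases *Rragd* (-0.63) and *Rragb* (-0.54).

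For the lists that follow, 15.9% of all tested genes were called higher and 12.8% lower. *Pycr1*, the last enzyme of proline synthesis, rose from 8.40 to 16.8 CPM (log2FC 1.00, SE 0.09, adjusted p = 5.21e-05), and *Aldh18a1*, the first, had 0.25. These were 2 of the 6 tested genes of proline metabolism, and 0 were lower. *Asns*, which makes asparagine (0.75), and *Ass1*, which makes the precursor of arginine (0.90), were among 3 higher and 2 lower of 11 in their list. *Gldc*, of glycine cleavage (0.89), and *Mthfd2*, of mitochondrial folate metabolism (0.62), were among 3 higher and 1 lower of 10. In the list for cysteine, taurine and glutathione 2 of 14 were higher, *Ggt7* (1.22) and *Cdo1* (0.88), and 0 were lower, which is near the share of all tested genes called higher (15.9%). In that for arginine, polyamines and creatine 4 of 12 were higher, with *Gatm*, the first enzyme of creatine synthesis, at 0.69, and 2 lower, with the muscle creatine kinase *Ckm* at -0.74.

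Of 16 factors and kinases of the amino acid response, 7 were higher and 1 lower, against 15.9% and 12.8% of all tested genes. *Cebpb* (1.20, adjusted p = 0.0251) and *Trib3* (1.06, adjusted p = 0.00452) had the largest changes, the former with 22.1 CPM in *Nrg1GOF* library 4 and 6.13 to 11.3 CPM in *Nrg1GOF* libraries 1 to 3. *Atf4*, named after its value was seen, had 0.27 (SE 0.06, adjusted p = 0.0079). Of 12 tested carriers of other families and partner proteins, 4 were higher and 3 lower, against the same shares. *Slc16a12*, a carrier of creatine, rose from 21.3 to 66.4 CPM (log2FC 1.64, SE 0.08, adjusted p = 1.88e-06), and *Slc17a8*, a vesicular glutamate carrier, from 0.306 to 3.11 CPM (3.35, SE 0.35, adjusted p = 0.000129).

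**Figure D4:**
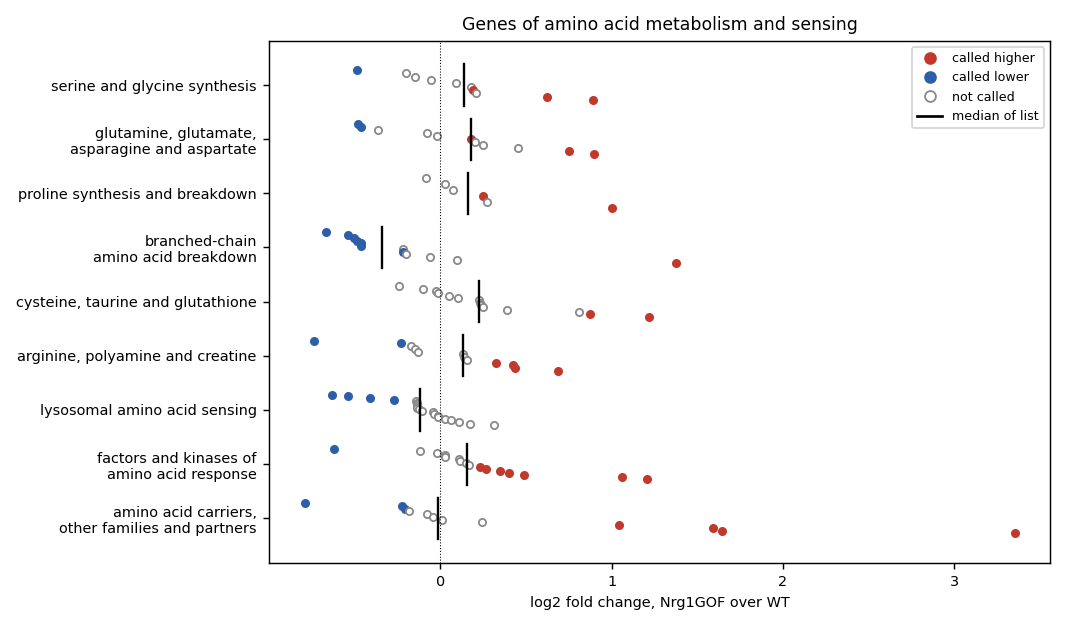
The log2 fold change of *Nrg1GOF* over WT (x axis) is plotted for the tested genes of 9 lists of amino acid metabolism and sensing (rows), with filled points for called genes and a bar for the median of the list. In branched-chain amino acid breakdown 7 of 12 genes are lower and the median is -0.34, while *Slc17a8* in the last row lies farthest to the right at 3.35.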

How the data were processed

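The deposited table holds the authors' expected counts from RSEM, on GRCm38 with Ensembl release 91, as the name of the table states, and the submitters' processing notes name RSEM 1.3.1 and cutadapt. Aligner and strand setting are not given in the sources used here. Libraries were made from poly(A) RNA with a directional kit. Symbols were matched for 53274 of 53465 genes. Coordinates, biotypes and exon lengths came from GENCODE M21, a later release on GRCm38.

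Expected counts were rounded, genes kept with filterByExpr of edgeR (4.0.16, R 4.3.3), library sizes scaled with the TMM method, and *Nrg1GOF* compared with WT by the two-sided quasi-likelihood test of edgeR, with p adjusted by the Benjamini-Hochberg method over 15580 genes and calls made under 0.05. The SE was taken as the size of the log2 fold change over the root of the F value. The script was tested on simulated data. Groups come from the sample titles, which do not say that replicates are separate embryos of separate litters, so p-values measure the spread between these samples. Totals ran from 8038641 to 26786039 counts, with 3 counts standing for 0.112 to 0.373 CPM, and this floor covers counting error only.

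The transporter genes and the lists were chosen with earlier results of these data known. Named were *Slc6a6*, *Slc3a2*, *Slc7a5*, *Slc7a11*, *Slc7a1*, *Slc1a5* and *Slc38a2*, the 8 highest and 8 lowest called transporter genes (5 were lower), the 5 of highest WT level per kilobase, *Nrg1* and at most 2 called genes per list. The others of the 40 are given to account for each. Alternatives were a likelihood ratio test, DESeq2 (1.42.0), other scalings, filters and thresholds, the replicate block, each library left out, WT pairs summed or alone, equal depth and a red blood cell covariate.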

Additional observations from a re-analysis of the deposited data

Results flagged for a closer look

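Within each genotype, Dixon's test compared the distance of the highest and the lowest of 4 libraries from its neighbour with the spread of all 4. Of 82 groups of values, 2 held such a library, where chance at 1 in 20 gives 4.1. The total of *Nrg1GOF* library 4, 8038641 counts, lay below the 20578081 to 22547833 counts of the other *Nrg1GOF* libraries (gap 0.864 of the range). In the same library *Slc7a14* was at 0.875 CPM, while *Nrg1GOF* libraries 1 to 3 had 1.37 to 1.41 CPM (gap 0.928), a value that rests on 7.49 expected counts.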

How the results depend on the processing

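Of 628 values recomputed under 21 alternatives, 569 gave the same direction and call or, for counts and the median, stayed close to the reported value. Of the rest, 18 moved, 30 weakened, 3 strengthened and 8 reversed. The 20 called transporter genes kept their direction in each alternative that could test them, and 10 of them (*Slc6a6*, *Slc1a2*, *Slc1a4*, *Slc38a5*, *Slc7a1*, *Slc3a2*, *Slc7a5*, *Slc36a4*, *Slc43a3* and *Slc6a17*) kept their call in all. *Slc6a6* stayed between 1.52 and 1.58.

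With the WT pairs summed, 12 transporter genes were called (30%, with 2 lower) and 2464 of all genes (15.3%, with 1548 higher and 916 lower). Against WT libraries 1 and 2 alone, 12 transporter genes were called (30%, against 18.6% of all genes then tested). Of the transporter genes 1 was lower (2.5%), and 1308 of all genes were (8.13%). The median log2 fold change of the transporter genes was then 0.25. At a threshold of 0.01, 2535 of all genes were called (1503 higher, 1032 lower) with 3 lower transporter genes, which follows from the threshold. The red blood cell covariate gave 8 lower transporter genes (20% of them, while 16.6% of all genes were then lower) and a median of 0.25, the replicate block a median of 0.25, and thinning to equal depth a median of 0.085 over the 36 genes then tested. The other causes were not tested. Leaving out 1 library gave 18 to 20 called transporter genes (13 to 15 higher, 5 to 6 lower), a median of 0.17 to 0.25, 40 to 47 called genes of the amino acid lists, and 3239 to 4261 of all genes.

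*Slc38a2*, near 0, reversed to 0.043 against WT libraries 1 and 2 alone and to 0.029 under scaling to the library total. It lay between -0.041 and 0.013 when 1 library was left out. *Slc7a11* reversed to -0.23 against WT libraries 1 and 2 alone and ranged from -0.13 to 0.82 when 1 library was left out. Neither was called in these. Same-numbered libraries of the groups correlated in their deviations at 0.049 to 0.199, and others at -0.263 to 0.187. Of 8 libraries, 4 correlated best with their own number, so the numbers were not taken to pair them. *Nrg1GOF* libraries 1 and 2 correlated at 0.049 to 0.187 with WT libraries 1 and 2. With WT libraries 3 and 4 they correlated at -0.199 to -0.073. *Nrg1GOF* library 3 went the other way (-0.263 and -0.080, then 0.199 and 0.164), and *Nrg1GOF* library 4 lay between -0.113 and 0.067. A division into pairs common to both groups was not tested. Each WT pair alone was compared with all *Nrg1GOF* libraries. The replicate block called 20 transporter genes, but not all the same ones. Of the named genes, *Slc7a3* lost its call under the block (adjusted p = 0.0663), and another gene gained one. Depth limits the low genes most, in *Nrg1GOF* library 4.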
